A study of Mus musculus with 4 samples.

Results

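Reported here are 10 genes of the interstitial matrix: the fibrillar collagen chains Col1a1, Col1a2, Col3a1, Col5a1 and Col5a2, the type VI collagen chains Col6a1 and Col6a2, fibronectin (Fn1), and the proteoglycans decorin (Dcn) and lumican (Lum). They were chosen by name, with earlier results of these data known. All 10 were found among the 55367 gene names of the deposited count table and among the 16945 genes that had enough reads to be tested. RNA was measured in 4 libraries of cells sorted from KPC tumours grown under the skin of C57BL/6 mice, 2 from mice given anti-CD93 antibody and 2 from mice given control rat IgG. The tumours grew from 400000 injected cells of KPC, a pancreatic cancer line of mice. The antibody was given into the peritoneum 48 hours before the cells were taken, once tumours could be felt, and the sort kept cells with the endothelial protein CD31 and without the leukocyte protein CD45. The labels do not say whether the libraries of a group came from separate mice, so every p-value measures only the spread between these libraries, which may be technical. CD93, the target of the antibody, is a transmembrane receptor of endothelial cells.

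Fibrillar collagens are chains that wind around each other into a rigid triple helix, and the helices are secreted, trimmed and packed side by side into fibrils. Type I collagen joins a pair of α1 chains with an α2 chain, type III collagen is made of Col3a1 chains alone, and type V collagen sits inside type I fibrils and limits their width. Type VI collagen forms beaded filaments between the fibrils and the basement membrane, decorin and lumican coat collagen fibrils, and fibronectin is a scaffold that cells pull into fibrils through integrin receptors. Fibroblasts are the main source of most of these proteins in tumours, while endothelial cells are well known to make fibronectin; CD93 with its ligand multimerin-2 is known to take part in the assembly of fibronectin fibrils around tumour vessels.

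The collagen genes share an exon design, which comes with the gene family they were chosen from and is no separate support for the choice. In the fibrillar genes most exons inside the coding sequence have a length that is a multiple of 9 bases. This is the length of 1 glycine-X-Y repeat, and many are exactly 54 bases long. Multiples of 9 made up 76.6% (Col5a1) to 90% (Col1a2) of internal coding exons in these genes, against 14.3% in all protein-coding genes. In 1 GENCODE vM21 transcript per gene, exons of 54 bases made up 21 of 49 internal coding exons in Col1a1, 24 of 50 in Col1a2, 24 of 49 in Col3a1, 29 of 64 in Col5a1 and 24 of 52 in Col5a2, against 0.727% of the 157052 internal coding exons of all protein-coding genes. Col6a1 and Col6a2 had 3 of 33 and 2 of 25. Fn1 had 0 of 44 and Dcn 0 of 5, and Lum has no internal coding exon. Examples are printed to show this repeat unit: for 5 chains, the exon nearest the start that begins in frame and has a glycine codon (GGN) opening each glycine-X-Y repeat, of 54 bases in the fibrillar chains and 63 bases in type VI chains. The sequences are from GENCODE vM21 on GRCm38, they run 5′ to 3′ on the gene's own strand, capitals mark the GGN codons, and each exon is present with the same ends in the deposited table.
Col1a2 exon, chr6:4515481-4515534, plus strand: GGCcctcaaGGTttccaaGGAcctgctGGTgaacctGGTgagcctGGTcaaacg
Col3a1 exon, chr1:45325360-45325413, plus strand: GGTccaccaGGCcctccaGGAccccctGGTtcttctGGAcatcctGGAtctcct
Col5a1 exon, chr2:27965251-27965304, plus strand: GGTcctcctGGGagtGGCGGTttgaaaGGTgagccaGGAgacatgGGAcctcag
Col6a1 exon, chr10:76717795-76717857, minus strand: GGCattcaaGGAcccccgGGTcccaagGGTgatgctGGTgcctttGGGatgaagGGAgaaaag
Col6a2 exon, chr10:76610160-76610222, minus strand: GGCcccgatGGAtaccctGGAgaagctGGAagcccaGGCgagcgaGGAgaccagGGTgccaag

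The repeat is shared in kind and not in letters. None of the 45 pairs of these 10 transcripts had a run of 31 bases in common (0 pairs); other transcripts and other genes were not compared. The printed Col3a1 exon holds 6 GGN codons among 18, and the printed Col6a1 and Col6a2 exons hold 7 among 21. These are the smallest counts that the choice of exons allowed, so they are not a finding. Exons that met the same conditions of length, frame and GGN codons were counted 23 times in Col1a2, 24 times in Col3a1 and 29 times in Col5a1. The GC content of the collagen transcripts was 49.6% in Col5a2, 52.5% in Col3a1, 55.7% in Col1a2, 56.7% in Col6a1, 58.0% in Col5a1, 58.9% in Col1a1 and 59.8% in Col6a2. Fn1 stood at 53.5%, and the proteoglycan transcripts were poorer, at 42.8% in Dcn and 41.9% in Lum.

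Several of the genes lie close to each other in the genome. Col3a1 (chromosome 1, 45311538 to 45349706, GRCm38, plus strand) and Col5a2 (chromosome 1, 45374321 to 45503282, minus strand) are 24.6 kb apart with no gene between them. Col6a2 (chromosome 10, 76595762 to 76623630, minus strand) and Col6a1 (chromosome 10, 76708792 to 76726168, minus strand) are 85.2 kb apart with Gm35608 between them, and Dcn (chromosome 10, 97479609 to 97518143, plus strand) and Lum (chromosome 10, 97565128 to 97572703, plus strand) are 47.0 kb apart with no gene between them. The other genes stand alone: Col1a1 at chromosome 11, 94936224 to 94953042, plus strand; Col1a2 at chromosome 6, 4504814 to 4541544, plus strand; Col5a1 at chromosome 2, 27886425 to 28039514, plus strand; and Fn1 at chromosome 1, 71585520 to 71653200, minus strand. Reads were counted without regard to strand. Only Fn1, Col5a1 and Col3a1 share exon bases with another annotated gene, over 2.5%, 2.48% and 1.44% of their exon length.

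The libraries held 17813993 and 13808077 reads assigned to genes in anti-CD93 replicates 1 and 2, and 12264231 and 9364294 in control IgG replicates 1 and 2. The 12 endothelial markers listed to check the sort, Pecam1 and Cdh5 among them, summed to 9708 and 10088 CPM in anti-CD93 replicates 1 and 2. In control IgG replicates 1 and 2 they summed to 9942 and 12332 CPM. No unsorted cells were measured, so how far the sort enriched endothelial cells was not tested. CPM are reads per 1000000 reads of the tested genes after TMM scaling. The target gene Cd93 had 1615 ± 143 CPM with anti-CD93 and 1644 ± 162 CPM with control IgG (SD, n = 2 each). Control IgG replicate 2 stood apart from the other libraries. It had the fewest assigned reads but the most genes with a read, 27718, against 23796 to 25430 in the other 3, and it was the highest or the lowest library in 38.7% and 38% of all tested genes, shares that ran from 19.7% to 21.5% for each other library.

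The 10 matrix genes were present at very different levels in the sorted cells, and the fibroblast proteoglycans were the scarcest of them. Together they took 0.41% and 0.502% of the assigned reads in anti-CD93 replicates 1 and 2, and 0.48% and 0.685% in control IgG replicates 1 and 2. Fn1 alone gave 43.9% and 44.6% of these reads in the anti-CD93 libraries and 43.1% and 48.1% in the control IgG libraries. Levels of different genes are compared here only per length, as the mean over the 4 libraries of CPM per kb of exon in the deposited table. By that measure Fn1 was at 201.8 CPM per kb and ranked 111 among the 16945 tested genes, and Col1a1 was at 152 CPM per kb and ranked 157. Col3a1 followed at 66.0, Col1a2 at 43.9 and Col6a1 at 38.6 CPM per kb. Col6a2 was at 19.6, Col5a1 at 18.9 and Col5a2 at 15.2 CPM per kb. Dcn at 2.43 and Lum at 1.79 CPM per kb ranked 10136 and 11383, so the span from Fn1 down to Lum was 112.7-fold. The ranges over the 4 libraries overlapped between most neighbours in this order, Fn1 and Col1a1 included, and were apart between Col1a1 and Col3a1, between Col6a1 and Col6a2 and between Col5a2 and Dcn. For scale, the endothelial genes Cdh5 and Pecam1 were at 644.6 and 276 CPM per kb. The tumour epithelial genes Krt8 and Krt18 were at 398 and 341 CPM per kb, above Pecam1 by this measure. It divides by deposited lengths of 6228 bases for Pecam1, 1958 for Krt8 and 1437 for Krt18. Their order per kb of transcript was not examined.

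The order rests in part on which gene length is used. The deposited length adds up all annotated exons of a gene, which for Col1a2 is 12426 bases against 5348 bases for the chosen GENCODE transcript, and for Col6a2 8326 against 3949 bases. Per kb of transcript, a length added once the values were known, Col1a2 was at 101.9 CPM per kb in place of 43.9, Col6a2 at 41.3 in place of 19.6 and Dcn at 8.06 in place of 2.43. Col6a1 and Col6a2 then changed places, as did Col5a1 and Col5a2, and the other 6 genes kept their ranks.

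**Figure D1:**
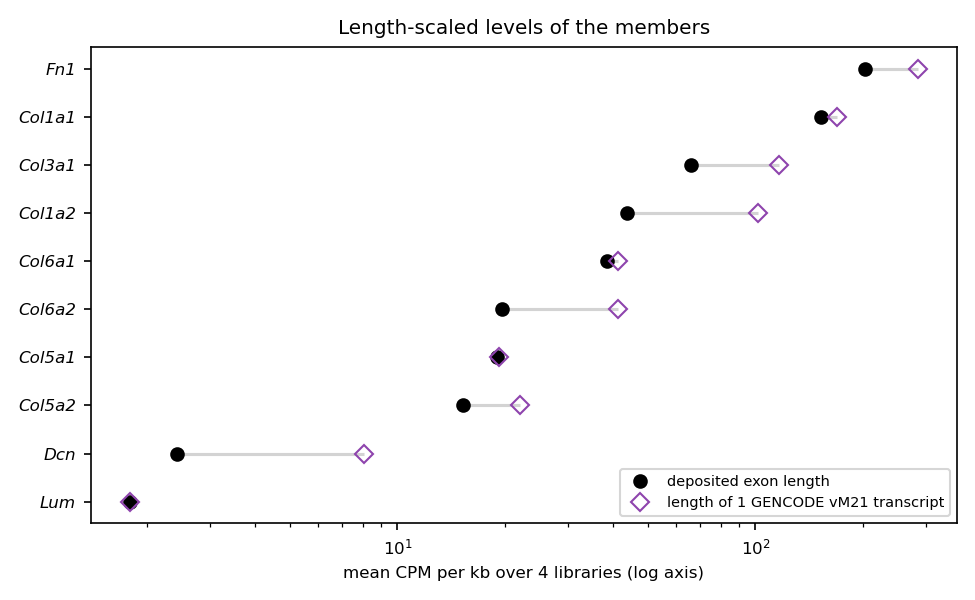
Mean level of each gene over the 4 libraries in CPM per kb on a log axis, with the deposited exon length (filled circles) and with the length of 1 GENCODE vM21 transcript (open diamonds). Fn1 and Col1a1 are the highest by both lengths and Dcn and Lum the lowest, while Col1a2, Col6a2 and Dcn move most between the lengths.

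The ratios between chains were compared within each library. Per kb of transcript, Col1a1 stood to Col1a2 as 1.72 and 1.52 in anti-CD93 replicates 1 and 2, and as 1.70 and 1.70 in control IgG replicates 1 and 2. With the deposited lengths the same ratio was 3.62 and 3.18 in anti-CD93 and 3.58 and 3.56 in control IgG, so its size depends on the length used. The groups overlapped in this ratio, with anti-CD93 replicate 2 the lowest library. Col6a1 stood to Col6a2 as 1.01 and 1.03 in anti-CD93 replicates 1 and 2 and as 1.02 and 0.941 in control IgG replicates 1 and 2, per kb of transcript. Col5a1 stood to Col5a2 as 0.819 and 0.766 in anti-CD93 against 0.824 and 1.08 in control IgG, where control IgG replicate 2 was apart from the other 3 libraries. With 2 libraries a group an exact permutation test of a ratio cannot give a p-value below 0.333, so no test of the ratios is given. Among genes whose chains do not share a molecule, Col3a1 stood to Col1a1 as 0.632 and 0.645 in anti-CD93 against 0.690 and 0.767 in control IgG, and Fn1 to Col1a1 as 1.58 and 1.63 in anti-CD93 against 1.55 and 1.89 in control IgG, both narrower, relative to their size, than Col5a1 to Col5a2. Lum to Dcn had the widest range, 0.291 and 0.218 in anti-CD93 and 0.265 and 0.152 in control IgG, and the fewest reads.

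The comparison the study was made for asks what anti-CD93 antibody changes in the RNA of tumour endothelial cells. None of the 10 matrix genes passed the test between anti-CD93 and control IgG (0 of 10 at an adjusted p under 0.05 by edgeR's quasi-likelihood test). In the same fit 0 of 16945 tested genes passed, 0% of them. An unadjusted p under 0.05 was reached by 761 genes, or 4.49% (1.99% higher and 2.5% lower), none of them among the 10. Of the 10 genes, 9 had a log2 fold change (anti-CD93 over control IgG) below 0, against 50.9% of all tested genes, with a median of -0.22 over the 10 and -0.0092 over all tested genes. In 4 of the 10 both anti-CD93 libraries lay below both control IgG libraries, which was the case in 19.7% of all tested genes; in 0 of the 10 did they lie above, against 20.1%, and either way the share was 39.8%. These shares describe the 10 genes and were not tested. In sorted bulk cells, fewer cells of a type and less RNA per cell cannot be told apart.

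Of the fibrillar chains, Col3a1, which forms the type III collagen of soft and healing tissue, had 485.6 and 594 CPM in anti-CD93 replicates 1 and 2, against 617 and 895.7 CPM in control IgG replicates 1 and 2. The groups did not overlap, but control IgG replicate 1 was close to anti-CD93 replicate 2, and the gap between the control libraries was wider than that between these 2. Its log2 fold change was -0.49 (SE 0.22, 95% interval -1.00 to 0.027, adjusted p = 0.812 by edgeR), the lowest of the 10. Col1a1, the α1 chain of type I collagen, had 819 and 981.7 CPM in anti-CD93 replicates 1 and 2, against 953 and 1245 CPM in control IgG replicates 1 and 2. Here control IgG replicate 1 fell between the anti-CD93 libraries, and the log2 fold change was -0.29 (SE 0.20, 95% interval -0.75 to 0.17, adjusted p = 0.812 by edgeR). Col1a2, the α2 chain, followed the same order of libraries with 429 and 584 CPM in anti-CD93 against 504.6 and 662 CPM in control IgG. Its log2 fold change was -0.20 (SE 0.22, adjusted p = 0.845 by edgeR). The Col1a2 value was 0.0037 without control IgG replicate 2 and 0.011 without anti-CD93 replicate 1, so its direction rests on single libraries.

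The type V chains, which start and regulate type I fibrils, were less alike. Col5a1 had 130 and 150 CPM in anti-CD93 replicates 1 and 2, against 159 and 208.6 CPM in control IgG replicates 1 and 2. The groups did not overlap, control IgG replicate 2 again being the highest, and the log2 fold change was -0.39 (SE 0.20, 95% interval -0.85 to 0.066, adjusted p = 0.812 by edgeR). Col5a2 had 125 and 154.7 CPM in anti-CD93 against 152 and 152 CPM in control IgG. The 2 control libraries were nearly equal and lay inside the anti-CD93 range, and the log2 fold change was -0.12 (SE 0.18, adjusted p = 0.885 by edgeR), or 0.031 without anti-CD93 replicate 1.

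The type VI chains differed little between the anti-CD93 libraries. Col6a1 had 159.7 and 158.6 CPM in anti-CD93 replicates 1 and 2, against 169 and 188 CPM in control IgG replicates 1 and 2. Col6a2 had 152 and 147.8 CPM in anti-CD93 against 159 and 192.8 CPM in control IgG. Neither gene's groups overlapped, but the step down to anti-CD93 from control IgG replicate 1 was smaller than the step between the control libraries. The log2 fold changes were -0.17 (SE 0.17, adjusted p = 0.835 by edgeR) for Col6a1 and -0.23 (SE 0.18, adjusted p = 0.812 by edgeR) for Col6a2. Among the 45 pairs of the 10 genes, these chains had the smallest Euclidean distance between their centred log2 values over the 4 libraries, 0.104. Col1a1 with Col5a1 followed at 0.105. The distance is not scaled, so genes that vary little lie close together. Genes outside the 10 lay much nearer to Col1a1, such as Tbrg4 at 0.0063, but Tbrg4 was the nearest of 10228 genes compared.

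Fn1, the fibronectin gene and the most abundant of the 10, had 1810 and 2245 CPM in anti-CD93 replicates 1 and 2, against 2073 and 3305 CPM in control IgG replicates 1 and 2. Control IgG replicate 2 was the highest by far, 1.59 times the other control library, while control IgG replicate 1 lay between the anti-CD93 libraries. The log2 fold change was -0.41 (SE 0.25, 95% interval -0.98 to 0.16, adjusted p = 0.812 by edgeR). With control IgG replicate 2 left out it was -0.033 (adjusted p = 0.963, edgeR). With control IgG replicate 1 left out it was -0.71 (adjusted p = 0.00555, edgeR), in a fit where 26.8% of all tested genes passed. Counts per gene do not separate the spliced forms of fibronectin, so the forms with extra domains that mark growing vessels were not analysed here.

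The fibroblast proteoglycans gave few reads. Dcn, decorin, which binds collagen fibrils and growth factors, had 195 and 224 reads in anti-CD93 replicates 1 and 2 and 149 and 161 reads in control IgG replicates 1 and 2. On the CPM scale that was 11.02 and 16.3 CPM in anti-CD93 against 12.2 and 17.2 CPM in control IgG, so the groups overlapped and each group held a low and a high library. The log2 fold change was -0.11 (SE 0.30, 95% interval -0.80 to 0.59, adjusted p = 0.943 by edgeR). It changed sign without anti-CD93 replicate 1 (0.16) and without control IgG replicate 2 (0.16). Lum, lumican, which spaces collagen fibrils, had 79 and 68 reads in anti-CD93 and 55 and 34 in control IgG, or 4.46 and 4.94 CPM in anti-CD93 against 4.49 and 3.64 CPM in control IgG. It was the only one of the 10 with a log2 fold change above 0 (0.20, SE 0.37, 95% interval -0.65 to 1.060, adjusted p = 0.904 by edgeR), and at this depth the interval includes a 2-fold rise.

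**Figure D2:**
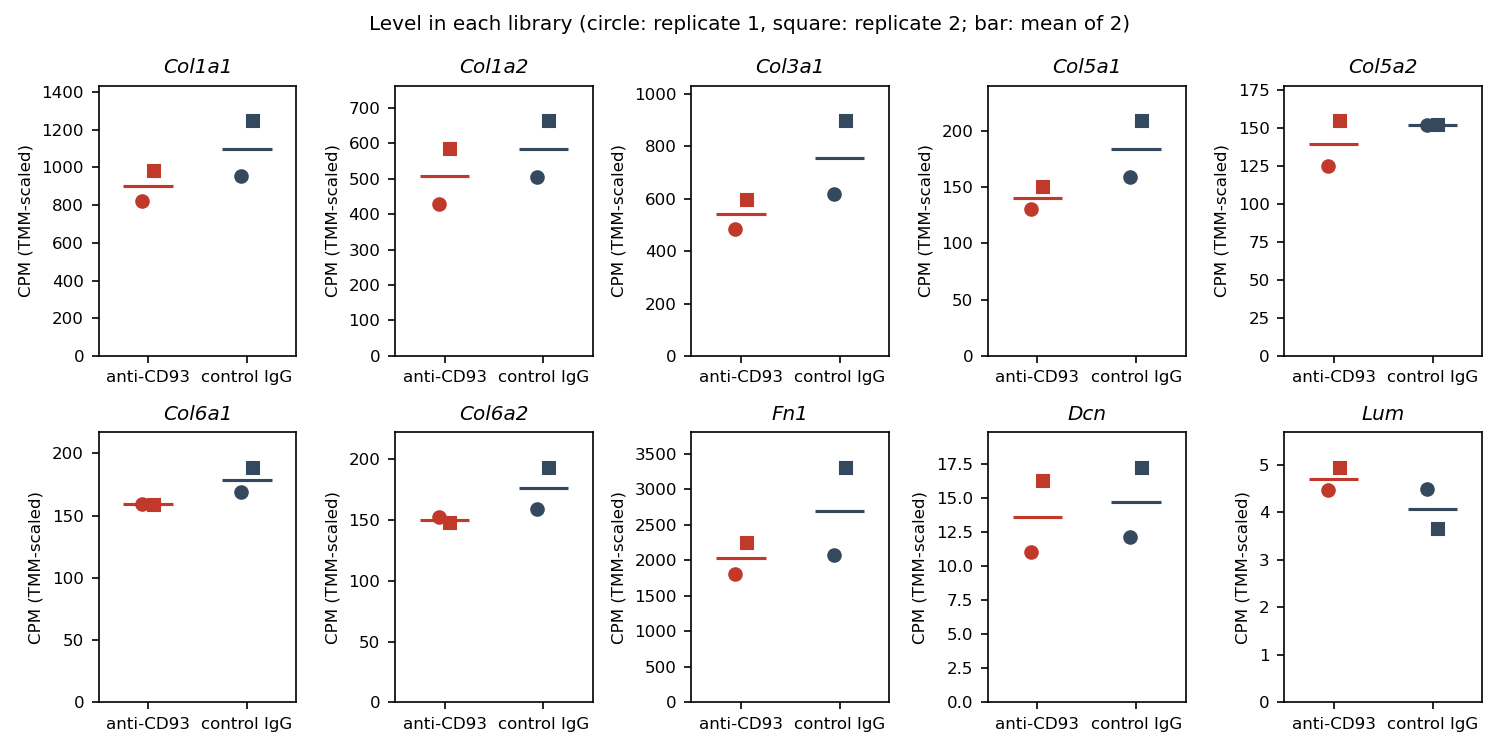
Level of each of the 10 genes in TMM-scaled CPM in every library, anti-CD93 on the left and control IgG on the right, with circles for replicate 1, squares for replicate 2 and a bar for the mean of 2; each axis starts at 0. In 8 of the 10 panels the control IgG replicate 2 square is the highest point (38.7% of all tested genes). In Col1a1, Col1a2, Col5a2, Fn1, Dcn and Lum the control IgG replicate 1 circle lies between the anti-CD93 points (28.6% of all tested genes).

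The same libraries were often highest and lowest among the 10 genes, while the full order of the 4 libraries differed between genes. Control IgG replicate 2 was the highest library in 8 of them (38.7% of all tested genes), the exceptions being Col5a2 and Lum, where anti-CD93 replicate 2 was highest. Anti-CD93 replicate 1 was the lowest in 7 of the 10 (21% of all tested genes). Within anti-CD93, replicate 2 was above replicate 1 in 8 genes (50% of all tested genes), by 1.48 times in Dcn, 1.36 times in Col1a2, 1.24 times in Fn1 and 1.20 times in Col1a1, while Col6a1 and Col6a2 stood at 0.993 and 0.971 times. Within control IgG, replicate 2 was above replicate 1 in 9 genes (50.8% of all tested genes), by up to 1.59 times in Fn1 and 1.45 times in Col3a1.

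Leaving out a control library moved the fold changes of most of these genes. Without control IgG replicate 2 the median log2 fold change of the 10 was -0.085, and 7 of 10 lay below 0, against 49.4% of all tested genes. Col1a1 was then at -0.083, Col3a1 at -0.19, Col5a1 at -0.18 and Col6a2 at -0.086. Without control IgG replicate 1 the median was -0.37 and 9 of 10 lay below 0. In that fit 5 of the 10 passed the test downward, namely Col1a1 (log2 fold change -0.47), Col3a1 (-0.73), Col5a1 (-0.57), Col6a2 (-0.36) and Fn1 (-0.71), with adjusted p from 0.00333 for Col3a1 to 0.0179 for Col6a2 by edgeR. Control IgG replicate 2 was then the one control library, assumed to vary like the anti-CD93 libraries, and 12.8% of all tested genes passed downward and 26.8% in either direction. Col5a2 was the gene that moved least between these fits, at -0.12 in both.

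**Figure D3:**
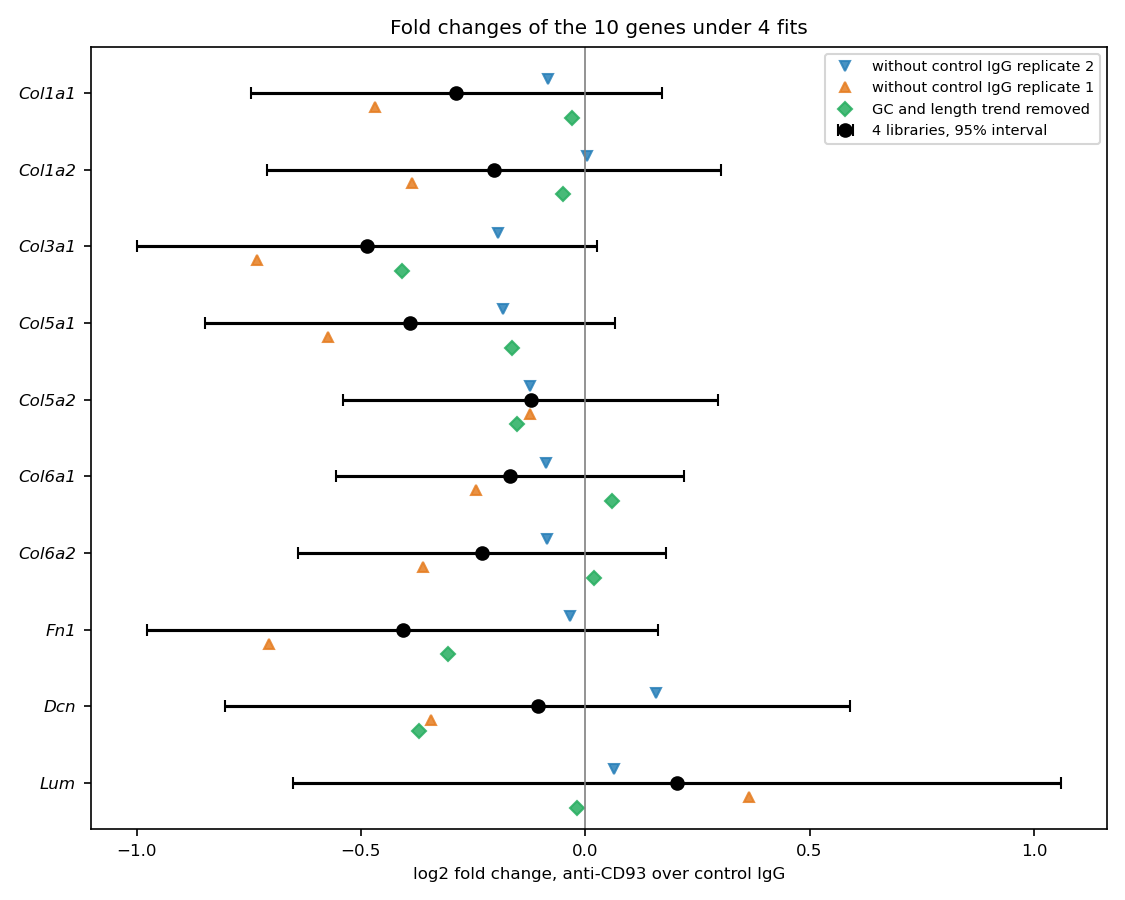
Log2 fold change of each gene, anti-CD93 over control IgG, from all 4 libraries with its 95% interval (black), without control IgG replicate 2 (blue, pointing down), without control IgG replicate 1 (orange, pointing up) and with each library's trend with GC content and length removed (green). Every black interval includes 0. In 9 of the 10 genes, all but Col5a2, the blue and orange points lie on opposite sides of the black one. The black value draws on both control libraries, so such a placement follows wherever these differ.

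The fold changes of all genes ran with the GC content of their transcripts, and the part of this in the values of the 10 genes was not tested. When the tested genes with a GC value were divided into 5 equal classes of GC content, the median log2 fold change was 0.27 in the class poorest in GC, then 0.12, -0.0047 and -0.13, and -0.27 in the richest. The control libraries also differed along GC content, in the opposite direction. The median log2 ratio of control IgG replicate 2 over replicate 1 was -0.40 in the poorest class and 0.38 in the richest. For anti-CD93 replicate 2 over replicate 1 it was -0.016 and 0.022. Of the 10 matrix genes, Col1a1, Col1a2, Col5a1, Col6a1 and Col6a2 belong to the richest class, Col3a1 and Fn1 to the next, Col5a2 to the middle class, and Dcn and Lum to the poorest. Across the 10 genes, Spearman's rho between GC content and log2 fold change was -0.50, and across 16615 tested genes it was -0.45. Among the 8 genes other than Dcn and Lum it was -0.024, over a narrower range of GC content, 49.6% to 59.8%. The value for the 10 thus depends on Dcn and Lum, which had few reads and the lowest GC content. The lowest fold changes were those of Col3a1 and Fn1. These points come from the same 4 libraries and are a description only.

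When each library's smooth trend with GC content and gene length was taken out, an alternative added once the values were known, 4 of the 5 collagens of the richest class lay near 0. Col1a1 was at -0.030, Col1a2 at -0.050, Col6a1 at 0.059 and Col6a2 at 0.019, while Col5a1 was at -0.16. Col3a1 (-0.41), Fn1 (-0.31) and Dcn (-0.37) were the lowest of the 10, and Col5a2 was at -0.15 and Lum at -0.019. The median of the 10 was -0.10, with 8 of 10 below 0 against 51.4% of all genes in that fit, and again none of the 10 passed (0 of 16615 genes in all; smallest adjusted p of the 10 = 0.843 by edgeR). Within control IgG, the log2 ratios of replicate 2 over replicate 1 were highest for Fn1, Col3a1 and Dcn, at 0.67, 0.54 and 0.44. The median of their GC class was 0.20 for Fn1 and Col3a1 and -0.40 for Dcn, so Dcn stood farthest above its class. Control IgG replicate 2 is part of each fold change, so these ratios are not a separate observation.

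**Figure D4:**
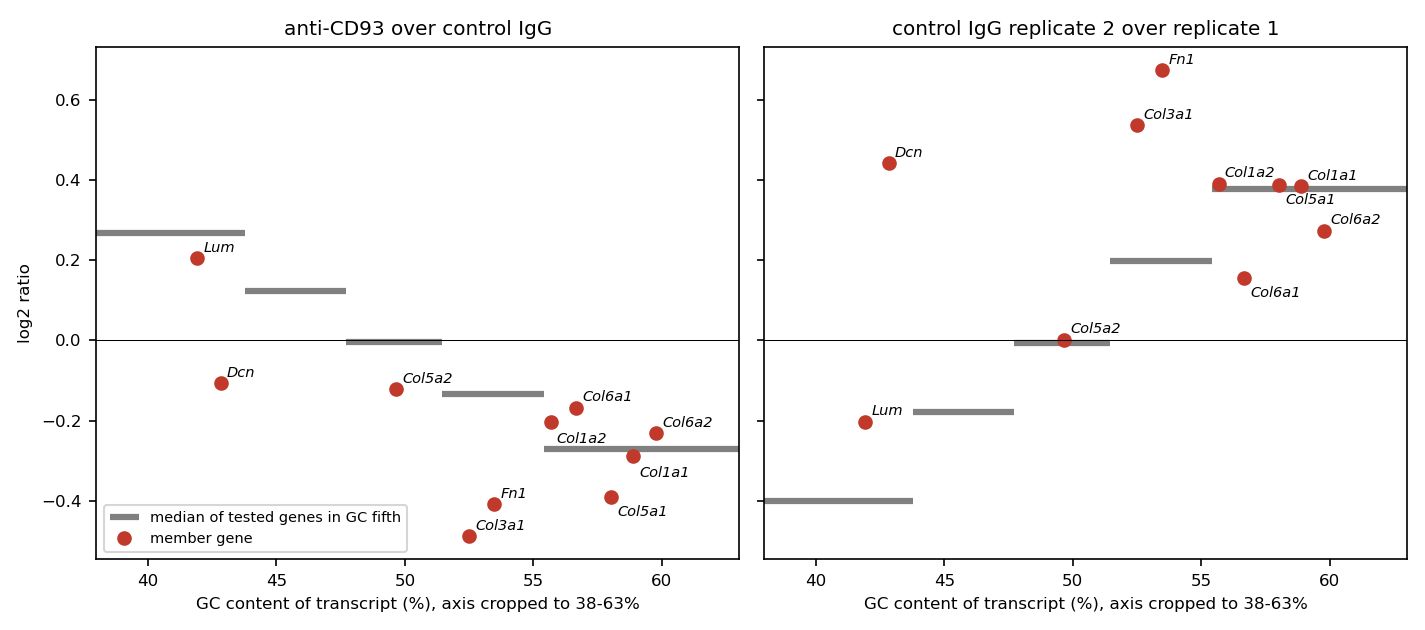
GC content of 1 transcript per gene on the horizontal axis against the log2 ratio of anti-CD93 over control IgG (left) and of control IgG replicate 2 over replicate 1 (right); red points are the 10 genes and grey bars the medians of all tested genes in each GC class. On the left the bars step down from 0.27 to -0.27 and on the right they step up from -0.40 to 0.38. Col3a1, Fn1 and Dcn lie below the bars on the left and above them on the right. The same holds by less for Col1a1, Col5a1, Col5a2 and Lum.

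The remaining genes of the same matrix were read from lists, and no gene of these lists passed the test (0 called in each, against 0% of all tested genes). Of the other fibrillar chains 5 of 6 had enough reads, 2 with log2 fold changes above 0 and 3 below, with a median of -0.10. Col5a3, another type V chain, had 65.6 ± 11.05 CPM with anti-CD93 and 86.7 ± 15.1 CPM with control IgG, and Col27a1 had 50.9 ± 4.82 CPM with anti-CD93 and 60.2 ± 4.04 CPM with control IgG (SD, n = 2 each, here and for the genes that follow). Col11a1, a cartilage and tumour stroma chain, had 3.69 ± 2.90 CPM with anti-CD93 and 1.62 ± 0.440 CPM with control IgG. The cartilage chain Col2a1 gave 2 and 6 reads in anti-CD93 replicates 1 and 2 and 0 and 13 in control IgG replicates 1 and 2, too few to be tested. Of the other type VI chains, Col6a3, the long chain that joins Col6a1 and Col6a2 in the same molecule, had 257.9 ± 3.25 CPM with anti-CD93 and 297.7 ± 34.7 CPM with control IgG (log2 fold change -0.21, SE 0.17, adjusted p = 0.817 by edgeR). That value lies between those of Col6a1 and Col6a2. Col6a4 was near the floor, at 1.13 ± 0.246 CPM with anti-CD93 and 2.00 ± 1.10 CPM with control IgG, and all 3 tested chains lay below 0.

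Among collagens that sit on fibril surfaces, 5 of 9 were tested, 2 above and 3 below 0, with a median of -0.42. Col12a1, which decorates type I fibrils under load, had 311 ± 27.5 CPM with anti-CD93 and 246 ± 85.4 CPM with control IgG, opposite in direction to Col1a1 but with overlapping groups. Col14a1 had 12.8 ± 1.503 CPM with anti-CD93 and 18.9 ± 4.99 CPM with control IgG, Col16a1 18.7 ± 5.46 against 25.0 ± 10.8 CPM, and Col9a3 0.464 ± 0.143 against 1.42 ± 0.861 CPM. Of the other small leucine-rich proteoglycans, relatives of Dcn and Lum, 8 of 12 were tested, 3 above and 5 below 0, with a median of -0.26. Bgn, biglycan, was the most abundant of them at 193 ± 32.8 CPM with anti-CD93 and 242 ± 62.8 CPM with control IgG. Ecm2 had 17.5 ± 0.237 CPM with anti-CD93 and 20.0 ± 2.93 CPM with control IgG. Aspn, asporin, which competes with decorin for collagen, had 7.99 ± 2.68 CPM with anti-CD93 and 4.19 ± 1.69 CPM with control IgG, and Prelp had 7.68 and 9.30 CPM in anti-CD93 replicates 1 and 2 against 9.22 and 21.9 CPM in control IgG replicates 1 and 2. Per kb, Bgn was at 35.7 CPM per kb, close to Col6a1, whereas Dcn and Lum were at 2.43 and 1.79.

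Matrix glycoproteins and elastic fibre genes were all tested, and 12 of 18 lay below 0 (median -0.26; 50.9% of all tested genes below 0). Sparc, a collagen-binding protein made by endothelium and stroma, had 4114 ± 89.3 CPM with anti-CD93 and 4821 ± 84.0 CPM with control IgG (log2 fold change -0.23, SE 0.17, adjusted p = 0.812 by edgeR). Its groups did not overlap. Thbs1, thrombospondin 1, lay the other way, at 879 ± 118 CPM with anti-CD93 and 712 ± 7.73 CPM with control IgG. Eln, elastin, had 25.9 ± 7.51 CPM with anti-CD93 and 56.3 ± 31.2 CPM with control IgG, and Fbln2, fibulin 2, had 287.6 ± 11.8 CPM with anti-CD93 and 414.6 ± 121 CPM with control IgG. In control IgG replicates 1 and 2 Eln had 34.3 and 78.4 CPM and Fbln2 had 329 and 500 CPM. Anti-CD93 replicate 2 had 31.2 CPM of Eln and 296 CPM of Fbln2, close to control IgG replicate 1. Neither gene passed (adjusted p = 0.812 by edgeR for both).

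Enzymes and chaperones that make collagen chains fit for export lay on both sides, 6 above and 15 below 0 of 21 tested (median -0.21). Serpinh1, the collagen chaperone HSP47, had 786.5 ± 19.3 CPM with anti-CD93 and 981 ± 186 CPM with control IgG, the same direction as Col1a1. P4hb, a subunit of prolyl hydroxylase, had 576 ± 22.8 CPM with anti-CD93 and 613 ± 110 CPM with control IgG. Plod2, which hydroxylates lysines for stable cross-links, had 43.8 ± 8.06 CPM with anti-CD93 and 23.3 ± 9.44 CPM with control IgG (log2 fold change 0.90, SE 0.30, adjusted p = 0.812 by edgeR). Bmp1, which trims procollagen ends, had 162 ± 24.0 CPM with anti-CD93 and 228 ± 33.0 CPM with control IgG.

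Receptors for collagen and fibronectin were evenly divided, 7 above and 7 below 0 of 14 (median -0.033). Itga5, the α5 chain of the main fibronectin receptor, had 355 ± 9.44 CPM with anti-CD93 and 489.7 ± 123 CPM with control IgG, while its partner Itgb1 had 1319 ± 87.8 CPM with anti-CD93 and 1086 ± 278 CPM with control IgG. Itgav, another fibronectin-binding α chain, had 221 ± 10.2 CPM with anti-CD93 and 162 ± 58.4 CPM with control IgG. Ligands of TGF-beta and genes of its matrix response were also mixed, 4 above and 6 below 0 of 10 (median -0.070). Ccn1 had 444 ± 44.8 CPM with anti-CD93 and 531 ± 27.1 CPM with control IgG. Tgfbi, a secreted collagen-binding protein, had 39.4 ± 5.26 CPM with anti-CD93 and 72.5 ± 39.6 CPM with control IgG. For Tgfbi the control IgG replicates 1 and 2 stood at 44.5 and 100.5 CPM. The feedback inhibitors Skil and Smad7 had 394 ± 43.7 and 277 ± 51.9 CPM with anti-CD93, against 309 ± 83.1 and 223.5 ± 2.11 CPM with control IgG.

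**Figure D5:**
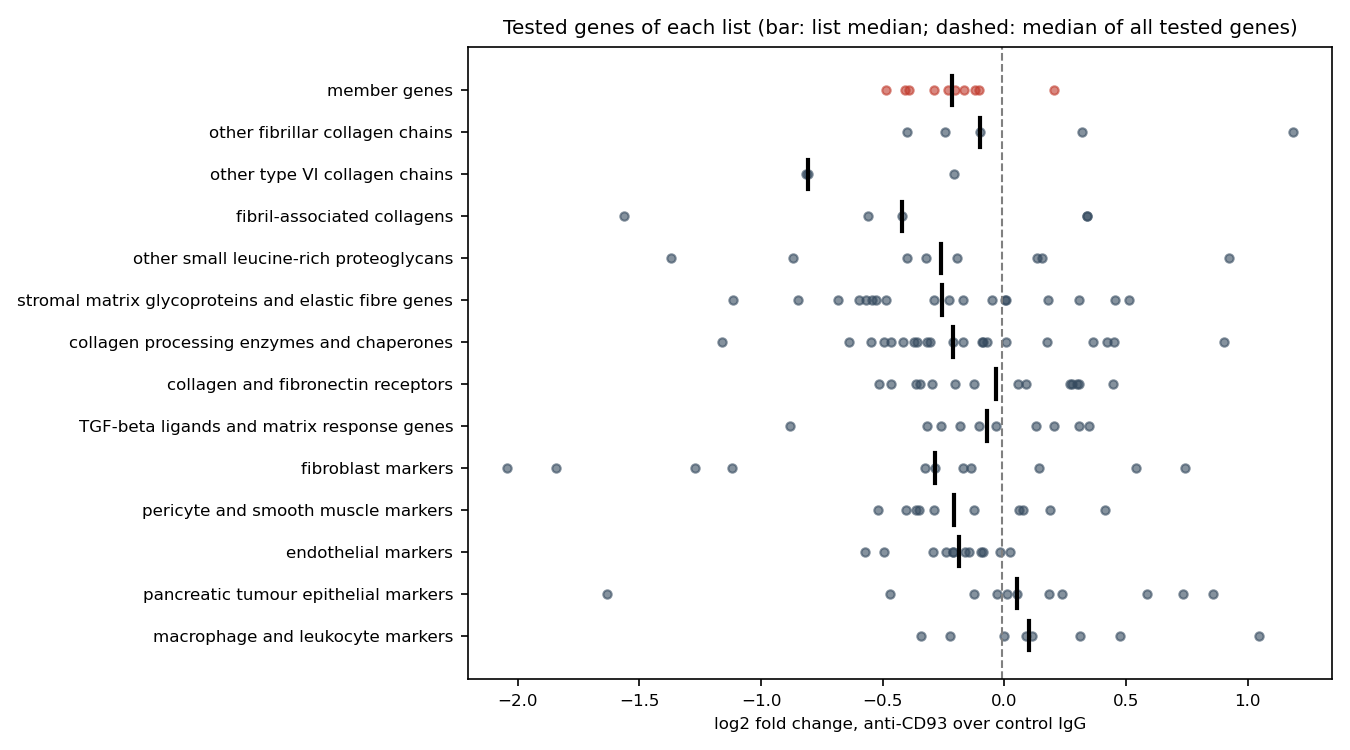
Log2 fold change, anti-CD93 over control IgG, of every tested gene of each list (points), with the list's median (bar) and the median of all tested genes, -0.0092 (dashed line). The 10 matrix genes, in red, lie between -0.49 and 0.20 with a median of -0.22, and no point in any list passed the test.

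Markers of other cells that the sort could hold are given beside these values, and their part in them was not tested. Of 12 fibroblast markers 11 were tested, 3 above and 8 below 0 (median -0.29), and their summed level was 121 and 139 CPM in anti-CD93 replicates 1 and 2 and 138 and 152 CPM in control IgG replicates 1 and 2, the same order of libraries as for Col1a1 except that the middle values were nearly equal. Tcf21, the remaining one, had 0 reads in 3 libraries and 1 in control IgG replicate 2. Mmp2 and Thy1 were the most abundant fibroblast markers, at 33.9 ± 4.93 and 29.5 ± 0.491 CPM with anti-CD93 and 41.4 ± 9.87 and 37.0 ± 4.91 CPM with control IgG. Pi16 and Twist1 had the smallest p of that list and stood near the floor, at 1.54 ± 0.902 and 1.61 ± 0.433 CPM with anti-CD93 and 5.48 ± 0.129 and 3.94 ± 0.490 CPM with control IgG. Prrx1, a mesenchymal transcription factor named here after its values were seen, lay the other way without overlap, at 18.9 and 23.8 CPM in anti-CD93 replicates 1 and 2 against 15.4 and 9.96 CPM in control IgG replicates 1 and 2. The 10 pericyte and smooth muscle markers summed to 1051 and 869 CPM in anti-CD93 and 1006 and 874 CPM in control IgG. Their leading genes were Abcc9 at 479 ± 36.7 CPM with anti-CD93 and 455 ± 78.0 CPM with control IgG and Rgs5 at 185 ± 58.5 CPM with anti-CD93 and 139 ± 43.2 CPM with control IgG. Kcnj8 and Des had 73.9 ± 8.01 and 12.9 ± 0.917 CPM with anti-CD93, against 106 ± 1.57 and 17.0 ± 2.54 CPM with control IgG. The summed level was higher in the replicate 1 library of each group, as were Abcc9 and Rgs5, whereas Pdgfrb, Acta2, Des, Cspg4 and Tagln were higher in control IgG replicate 2 than in replicate 1.

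The 11 tumour epithelial markers, 7 above and 4 below 0, summed to 2519 and 2121 CPM in anti-CD93 replicates 1 and 2 and to 1780 and 2578 CPM in control IgG replicates 1 and 2. Krt8 and Krt18 led them with 783.5 ± 101 and 469 ± 55.4 CPM with anti-CD93 and 777 ± 226 and 511 ± 172 CPM with control IgG, and Muc1 and Epcam had 75.2 ± 4.58 and 37.6 ± 4.99 CPM with anti-CD93 and 41.6 ± 9.13 and 22.6 ± 1.23 CPM with control IgG. The 9 macrophage and leukocyte markers, of which 8 were tested, 5 above and 3 below 0, summed to 53.7 and 49.9 CPM in anti-CD93 and 30.6 and 55.3 CPM in control IgG. Lyz2, Cd14 and C1qa had 16.5 ± 2.29, 15.7 ± 1.38 and 4.34 ± 0.490 CPM with anti-CD93, against 12.0 ± 6.08, 12.6 ± 1.499 and 2.10 ± 0.205 CPM with control IgG. Cd68, C1qb and Csf1r were the markers below 0, at log2 fold changes of -0.34, -0.22 and -0.0012. Among the endothelial markers themselves 11 of 12 lay below 0 (median -0.18). Cdh5 had 2513 ± 67.7 CPM with anti-CD93 and 2906 ± 559 CPM with control IgG, Pecam1 1662 ± 1.71 against 1779 ± 132 CPM, Egfl7 516 ± 10.3 against 729 ± 178 CPM and Cldn5 105 ± 11.8 against 157 ± 1.51 CPM. No marker of these lists passed the test (adjusted p = 0.812 or higher by edgeR).

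The genes whose profiles over the 4 libraries were most like that of Col1a1, by Euclidean distance between centred log2 values among 10228 genes, were Tbrg4 (0.0063), Pcbp4 (0.024), Dlgap4 (0.027), Aar2 (0.037) and Arap3 (0.038). Dlgap4, for example, had 94.2 and 114 CPM in anti-CD93 replicates 1 and 2 against 108 and 145 CPM in control IgG replicates 1 and 2. Nearest to Fn1 were Mmab (0.028), the pseudogene Rpsa-ps10 (0.047), Ppan (0.049), Ube2o (0.050) and Nectin1 (0.054). With 4 libraries many genes share a profile by this measure. None of these is a collagen or a fibroblast marker, but such genes are few among the 10228 compared. Their absence from these short lists therefore does not tell whether Col1a1 or Fn1 follows them.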

How the data were processed

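Per the file headers, the authors ran featureCounts 2.0.1 with GENCODE vM25 (GRCm38), grouped by gene name; the deposited table holds raw read counts and a score-type column of exon length in bases. The recorded command has no paired-end, strand or multi-overlap option, so mates were counted singly: 66.3% to 74.8% of counts from 1 to 10 were even. STAR 2.7.5b and DESeq2 1.28.1 are named in the submitters' processing notes. The other deposited table carries the word normalized in its name but holds identical raw counts (0 of 221468 cells differed).

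Genes were kept by filterByExpr (minimum count 10), TMM-scaled and tested by quasi-likelihood in edgeR 4.0.16 (robust, no covariates, R 4.3.3) with Benjamini-Hochberg adjustment over all tested genes, threshold 0.05. Intervals are 95% from that fit. Depth and 2 libraries per group limit the precision. The code was tested on simulated data. The members and lists were chosen with earlier results of these data known. Named were the 10 members, Cd93, of each other list the 2 most abundant genes and the 2 of smallest p, the 5 genes nearest in profile to Col1a1 and to Fn1 (mean of at least 5 CPM, symbols starting Gm or ending Rik left out; log2 of CPM plus 2), and Col2a1, Tcf21, Prrx1, Cd68, C1qb, Csf1r, Pdgfrb, Acta2, Cspg4 and Tagln, picked after their values were seen. GC content came from GENCODE vM21, for 98.1% of tested genes. Alternatives were other scalings, filters and tests (limma-voom 3.58.1, DESeq2 1.42.0), halved counts, a replicate block, each library left out, other thresholds, and, added later, trend removal and transcript length.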

Additional observations from a re-analysis of the deposited data

How the results depend on the processing

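None of the 10 matrix genes passed under any of 16 other settings except without control IgG replicate 1; leaving out each library gave 0 to 5 of them past the test. Their median log2 fold change ran from -0.42 to -0.085 with a library left out and was -0.047 when scaled by endothelial marker counts, a scaling that moved the median of all genes to 0.14. With DESeq2 the median of all genes was -0.13 and that of the 10 was -0.20. The count of all genes past the test was 48 with no count filter, 14 with the replicate block, 5 by DESeq2, 761 at an unadjusted p under 0.05 and 0 to 4549 with a library left out, and the cause was not tested. Of 160 single-gene values, 10 turned sign, none of them past the test. With a library left out, Col1a2 ran from -0.44 to 0.011, Col5a2 from -0.28 to 0.031 and Dcn from -0.41 to 0.16. Scaled by endothelial markers, Col5a2 was 0.030 and Dcn 0.067, that is, below the shifted median of all genes. With GC and length trends removed, Col6a1 was 0.059, Col6a2 0.019 and Lum -0.019. The labels do not say that same-numbered libraries share an animal or a day, so the numbers were not taken as pairs. Across all tested genes their deviations had a correlation of -0.016, which cannot exclude pairing. Among the 10, replicate 2 was above replicate 1 in 8 genes with anti-CD93 and in 9 with control IgG. Under the block no matrix gene passed (Col3a1 -0.47, adjusted p = 0.771 by edgeR). Dcn and Lum, with 34 to 224 reads a library, have the widest intervals.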
